A study of Mus musculus with 11 samples.

Results

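Expression of 10 genes of the ER chaperone machinery was examined, several of them known targets of ATF6. Hspa5 (BiP) is the ER-resident HSP70 chaperone. Hyou1, an HSP110-type protein, releases nucleotide from BiP, and Hspa13 is a further HSP70-like protein of the ER. Dnajb11 and Dnajc3 are J-domain co-chaperones of BiP, and Sdf2l1 works in complex with Dnajb11. Hsp90b1 (GRP94) is the HSP90 of the ER, Calr and Canx are the soluble and the membrane-bound lectin chaperones for glycoproteins, and Manf is a secreted ER stress protein that binds BiP. The genes were chosen by symbol, as 10 of the 18667 genes in the expression tables, and all 10 passed the filter on low values.

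The endoplasmic reticulum (ER) folds secreted and membrane proteins, and its lumen is held at high chaperone concentration. ATF6 is a transcription factor made as an ER membrane protein and activated by proteolysis under ER stress, and many chaperone genes are among its targets. It acts with NF-Y on the ER stress response element (ERSE), and the XBP1 branch of the unfolded protein response acts on overlapping genes. In the cochlea, hair cells depend on a steady supply of membrane proteins for their stereocilia, and spiral ligament fibrocytes secrete matrix proteins such as cochlin.

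RNA-Seq libraries came from whole cochleae of 2-month-old mice on a pure C57BL/6J background, 5 Atf6+/+ and 6 Atf6-/-, 1 library for each individual cochlea. Whether each cochlea came from a different mouse is not stated, and the tests treat the libraries as independent. In Atf6-/- mice, exon 4 of Atf6 holds an early stop in every cell, and ATF6 protein is absent, and the Atf6+/+ mice were their littermates. C57BL/6J mice of both genotypes carry the Cdh23 allele of age-related hearing loss, and both sexes were used. Values are FPKM (fragments scaled by transcript length and by the mapped fragments of the library), so levels of different genes are compared here per length.

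The allele itself was read first. Atf6 stood at 10.4, 9.99, 10.6, 8.39 and 8.25 FPKM in the Atf6+/+ libraries and at 3.83, 4.23 and 4.59 FPKM (lowest, median, highest) in the Atf6-/- libraries. The genotypes did not overlap, and Atf6 RNA fell by 1.13 on the log2 scale (limma, adjusted p = 5.17e-05). Atf6b, the paralog of Atf6, lay between 32.0 and 35.6 FPKM in Atf6+/+ and between 35.8 and 36.6 FPKM in Atf6-/- cochleae, without overlap, at a log2 difference of 0.12 and an adjusted p of 0.391.

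Of 16169 genes tested, 11 (0.0680%) passed an adjusted p of 0.05, and no chaperone gene of the 10 was among them. At the unadjusted threshold (limma p no higher than 0.05 and a log2 change beyond 0.05), 2 of the 10, Hyou1 and Hspa13, were higher in Atf6-/- cochleae, against 4.48% of all genes, and 1 of the 10, Hsp90b1, was lower, against 5.37% of all genes. The median log2 difference of the 10 genes was 0.025, beside -0.013 for all genes tested. The sign of the former depended on the fit. Hspa5, Canx, Dnajb11 and Manf had mean differences under 5% of the Atf6+/+ level. Rescaling each library to the same sum (TPM) moved the median of all genes to 0.043 and turned the small negative log2 differences of Hspa5 (to 0.0091), Canx (0.056) and Dnajb11 (0.0029) positive. In bulk RNA, a difference in the number of cells of a type and in the RNA made per cell cannot be told apart, and p-values here measure only the spread between these libraries.

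The regulatory sequence of the genes was read from RefSeq promoters of the assembly GRCm38.p6, in a window of 250 bases before to 50 bases after each transcription start. A promoter was found for 7 of the 10 genes, not for Hyou1, Hspa13 and Manf. The ERSE was searched on both strands as CCAAT, 9 further bases and CCACG. It stood in 39 of 32851 promoters (0.119%), and 5 of the 7 chaperone genes had it, Hspa5, Hsp90b1, Calr, Canx and Dnajc3. Dnajb11 had the shorter ERSE-II (ATTGG, 1 base, CCACG), which stood in 12 promoters (0.0365%) and shares its CCACG and the reverse complement of CCAAT with the ERSE. Sdf2l1 had neither in this window. The elements, 5′ to 3′ on the strand that reads CCAAT or ATTGG first, carry their fixed bases in capitals and are shown because they are the known landing site of ATF6 with NF-Y:
Hspa5, first base 65 bases upstream of the start, gene strand: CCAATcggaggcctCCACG
Hsp90b1, first base 212 bases upstream, gene strand: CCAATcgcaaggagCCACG
Hsp90b1, leftmost base 107 bases upstream, other strand: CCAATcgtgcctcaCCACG
Calr, leftmost base 162 bases upstream, other strand: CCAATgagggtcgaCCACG
Canx, first base 145 bases upstream, gene strand: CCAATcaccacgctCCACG
Dnajc3, first base 105 bases upstream, gene strand: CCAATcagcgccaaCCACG
Dnajb11, first base at base 8 of the transcript, gene strand: ATTGGcCCACG

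The 250 bases before the start of the 3 most abundant genes follow on the gene strand, with the fixed bases of each ERSE in capitals. An element on the other strand therefore reads CGTGG first and ATTGG last.
Hspa5 chr2:34771840-34772089 (+): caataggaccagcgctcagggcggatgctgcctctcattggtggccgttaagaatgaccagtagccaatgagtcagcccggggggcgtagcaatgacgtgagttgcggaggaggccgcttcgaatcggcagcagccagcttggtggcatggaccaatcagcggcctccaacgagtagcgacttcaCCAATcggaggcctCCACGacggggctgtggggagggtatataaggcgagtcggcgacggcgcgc
Hsp90b1 chr10:86705445-86705694 (-): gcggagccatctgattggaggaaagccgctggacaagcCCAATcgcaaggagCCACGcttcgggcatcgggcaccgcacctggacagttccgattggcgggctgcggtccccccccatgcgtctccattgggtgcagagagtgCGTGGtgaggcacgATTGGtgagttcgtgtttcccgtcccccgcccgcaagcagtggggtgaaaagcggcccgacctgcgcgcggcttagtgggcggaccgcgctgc
Calr chr8:84846932-84847181 (-): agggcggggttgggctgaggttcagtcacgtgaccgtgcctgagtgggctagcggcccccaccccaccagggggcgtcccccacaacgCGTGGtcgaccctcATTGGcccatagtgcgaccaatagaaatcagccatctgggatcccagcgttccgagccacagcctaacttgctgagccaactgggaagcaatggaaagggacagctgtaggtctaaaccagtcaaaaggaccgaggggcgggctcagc

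**Figure D1:**
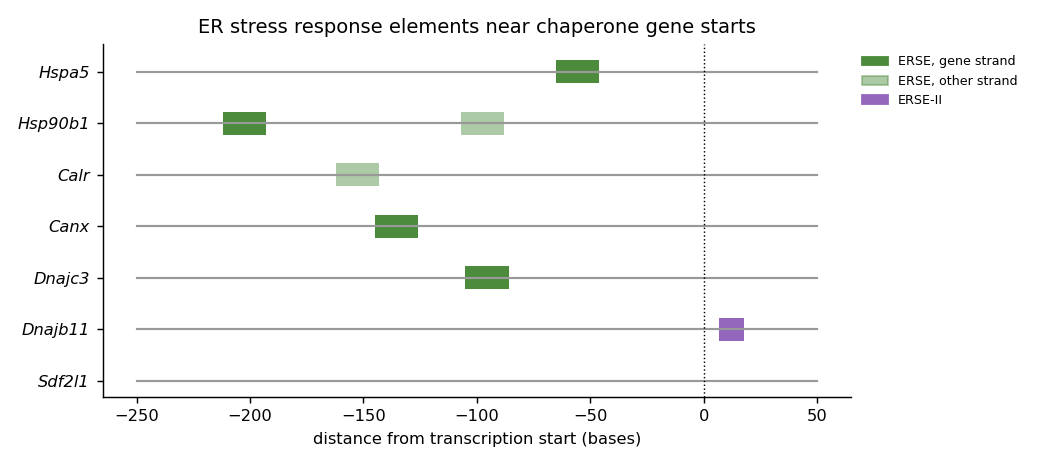
Position of ERSE and ERSE-II matches around the transcription start (dotted line at 0, in bases) of the 7 chaperone genes with a RefSeq promoter; bars span each match and pale bars lie on the other strand. Hsp90b1 has 2 matches, Sdf2l1 none, and the Dnajb11 match lies after the start.

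The genes with an ERSE did not share a direction. Among the 27025 genes with a promoter to search, 37 had the element, and 21 of these were tested. Of the 21, 9 had a higher and 12 a lower mean in Atf6-/- cochleae, with a median log2 difference of -0.017. At the unadjusted threshold 1 of the 21 was higher (4.48% of all genes) and 3 were lower (5.37% of all genes). Syvn1, an ER-associated degradation ubiquitin ligase, was the higher gene (0.13), and Hsp90b1 (-0.20), Derl3 (-0.47) and Xlr3a (-1.17) were lower on the log2 scale. Within the 5 chaperones with an ERSE, Hsp90b1 was lower. Calr had a mean log2 difference of 0.14, Dnajc3 of 0.098, Canx of -0.0010 and Hspa5 of -0.048. Only exact matches were counted, so the number of elements for each gene depends on the search. None of the 21 passed an adjusted p of 0.05.

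Of the 10 genes, BiP ranked behind Calr and Hsp90b1. Hspa5 read 130, 121, 162, 115 and 133 FPKM in the Atf6+/+ libraries and 112, 131 and 146 FPKM (lowest, median, highest) in the Atf6-/- libraries. The ranges overlapped except for Atf6+/+ replicate 3, above every Atf6-/- library, and Atf6-/- replicates 5 and 6, below every Atf6+/+ library, and 3 of 6 Atf6-/- libraries lay above the Atf6+/+ median. The means were 132 ± 17.8 (SD, n = 5) and 128 ± 12.8 (SD, n = 6) FPKM, a difference of -3.25% with a 95% interval from -15.6% to 10.9% (limma, adjusted p = 0.881; exact two-sided permutation test, p = 0.643).

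Hyou1, a partner of BiP, and Hspa13, the further HSP70-like protein, passed the unadjusted threshold. Hyou1 read 29.8, 27.8, 33.4, 26.4 and 26.6 FPKM in Atf6+/+ and 32.2, 33.3 and 35.1 FPKM (lowest, median, highest) in Atf6-/- cochleae. All 6 Atf6-/- libraries were above the Atf6+/+ median, and only Atf6+/+ replicate 3 reached into their range. The mean was higher, from 28.8 ± 2.87 (SD, n = 5) to 33.5 ± 1.19 (SD, n = 6) FPKM, a difference of 16.6% with a 95% interval from 6.49% to 27.6% (limma, unadjusted p = 0.00303, adjusted p = 0.350; exact two-sided permutation test, p = 0.00866).

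Hspa13, the least abundant of the 10 genes, read 6.17, 5.99, 6.20, 5.05 and 6.84 FPKM in Atf6+/+ and 6.77, 7.10 and 7.50 FPKM in Atf6-/- cochleae. Again 6 of 6 Atf6-/- libraries exceeded the Atf6+/+ median, and the overlap came from Atf6+/+ replicate 5, which stood just above the lowest Atf6-/- library. The mean was 17.5% higher, with a 95% interval from 5.15% to 31.3% (limma, unadjusted p = 0.00806, adjusted p = 0.399; exact two-sided permutation test, p = 0.00433). Hyou1 and Hspa13 passed the unadjusted threshold in each of 11 fits that left out 1 library and in each of 11 other settings.

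The intervals of the J-domain partners, Sdf2l1 and Manf all crossed 0. Dnajb11 ranged from 26.9 to 33.1 FPKM in Atf6+/+ and from 26.5 to 31.1 FPKM in Atf6-/- cochleae, a difference of -3.66% (95% interval -12.1% to 5.57%). Dnajc3, which also inhibits the kinase PERK, ranged from 17.6 to 24.2 and from 21.6 to 25.1 FPKM (7.04%, interval -5.57% to 21.3%). On the log2 scale the Dnajc3 difference was 0.098, ran from 0.025 to 0.14 without 1 library, and was -0.035 with a bone marrow score as covariate. Sdf2l1 had the widest relative spread of the 10 genes, 21.7% (SD over mean) in Atf6+/+ and 15.8% in Atf6-/- cochleae. It read 12.6, 10.4, 17.4, 11.6 and 11.6 FPKM in Atf6+/+ and 9.13, 10.9 and 13.6 FPKM in Atf6-/- cochleae, so that Atf6+/+ replicate 3 stood above all others, and its difference of -12.9% had an interval from -29.1% to 7.04%. On the log2 scale the Sdf2l1 difference was -0.20 with all libraries, -0.079 without Atf6+/+ replicate 3 and -0.068 with a bone marrow score as covariate. Manf ranged from 65.3 to 89.2 FPKM in Atf6+/+ and from 65.1 to 96.3 FPKM in Atf6-/- cochleae (3.54%, interval -12.6% to 22.7%).

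GRP94 went the other way from Hyou1. Hsp90b1 read 178, 164, 202, 143 and 182 FPKM in Atf6+/+ and 134, 154 and 170 FPKM (lowest, median, highest) in Atf6-/- cochleae. All 6 Atf6-/- libraries were below the Atf6+/+ median, while Atf6+/+ replicates 2 and 4 lay within their range. The mean was 174 ± 21.7 (SD, n = 5) against 151 ± 13.6 (SD, n = 6) FPKM, -13.0% with a 95% interval from -23.7% to -0.756% (limma, unadjusted p = 0.0399, adjusted p = 0.491; exact two-sided permutation test, p = 0.0693). The unadjusted call was lost when FPKM were rescaled to TPM (log2 difference -0.14), with a bone marrow score as covariate (-0.19) or an osteoblast score (-0.20), with a replicate block (-0.17), and without Atf6+/+ replicate 1 (-0.19), 3 (-0.14) or 5 (-0.18) or Atf6-/- replicate 4 (-0.21), 5 (-0.17) or 6 (-0.17).

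Of the lectin chaperones, Calr was the most abundant gene of the 10 and read 285, 274, 363, 266 and 319 FPKM in Atf6+/+ and 300.4, 331 and 367 FPKM in Atf6-/- cochleae. Each of 6 Atf6-/- libraries was above the Atf6+/+ median, and Atf6+/+ replicates 3 and 5 lay within the Atf6-/- range. The difference was 9.88% with a 95% interval from -3.25% to 24.8% (limma, unadjusted p = 0.133, adjusted p = 0.586). It passed the unadjusted threshold without Atf6+/+ replicate 3 (log2 difference 0.21) and after rescaling to TPM (0.19). Canx was the most even, at 69.9 to 85.2 FPKM in Atf6+/+ and 75.0 to 82.7 FPKM in Atf6-/- cochleae, and its difference of -0.072% had an interval from -7.55% to 8.01%.

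**Figure D2:**
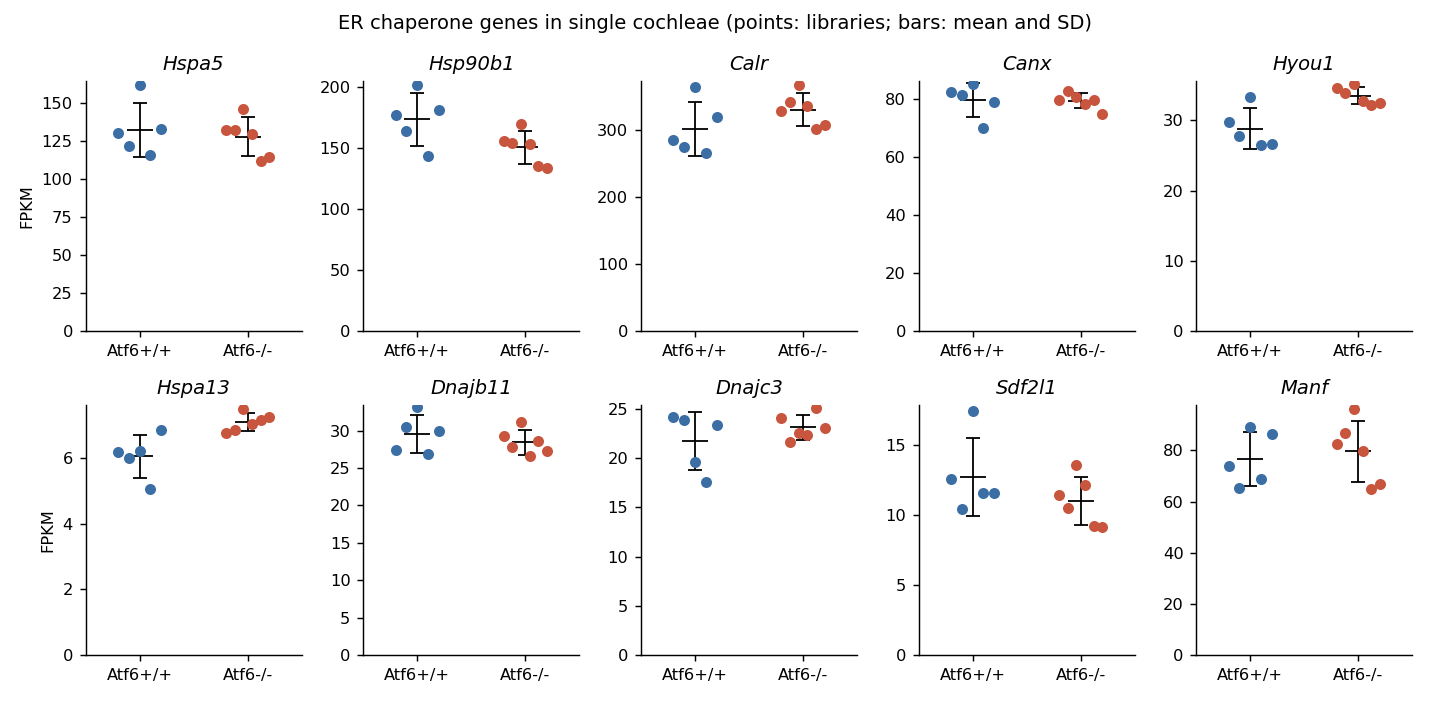
FPKM of each chaperone gene in 5 Atf6+/+ (blue) and 6 Atf6-/- (red) cochleae; points are libraries in replicate order, bars the mean and SD. The genotypes overlap in each panel, and Hyou1 and Hspa13 come nearest to separating.

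**Figure D3:**
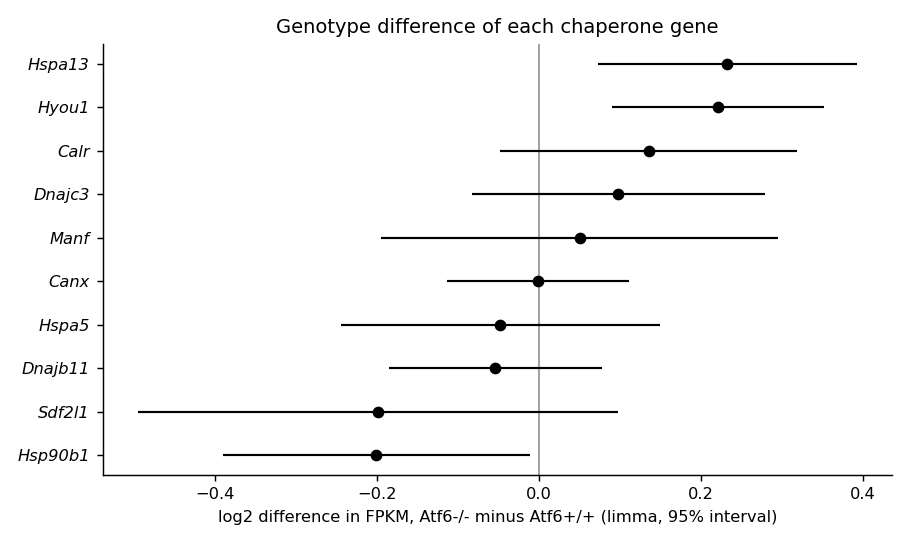
Log2 difference in FPKM, Atf6-/- minus Atf6+/+, of each chaperone gene (points) with its 95% interval from limma (lines). Hyou1 and Hspa13 lie above 0, Hsp90b1 below, and the other 7 intervals cross 0.

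Summed over the 10 genes, chaperone RNA was 862 ± 98.8 (SD, n = 5) FPKM in Atf6+/+ and 870 ± 66.4 (SD, n = 6) FPKM in Atf6-/- cochleae. Calr, Hsp90b1 and Hspa5 made up 69.5% to 71.9% of the sum in Atf6+/+ and 68.9% to 70.5% in Atf6-/- libraries. In both genotypes the order ran from Calr through Hsp90b1 and Hspa5, whose ranges overlapped, to Canx and Manf, which overlapped too and changed places (mean FPKM of 79.6 and 76.7 in Atf6+/+, and of 79.4 and 79.6 in Atf6-/- libraries). Dnajb11 and Hyou1 overlapped in Atf6+/+ cochleae, whereas in Atf6-/- cochleae every Hyou1 value lay above every Dnajb11 value. Dnajc3, Sdf2l1 and Hspa13 followed in that order without overlap.

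Between cochleae of the same genotype, Calr, Hsp90b1, Sdf2l1, Manf and Hyou1 varied with Hspa5, and the other 4 genes did so less or not at all. Atf6+/+ replicate 3 was the highest Atf6+/+ library for 8 of the 10 genes and replicate 4 the lowest for 8. Atf6-/- replicate 3 was the highest Atf6-/- library for 8, and Atf6-/- replicates 5 and 6 were the lowest for 4 and 3. After each genotype mean was removed, the genes were ranked by the correlation of their log2 values with Hspa5 over the 11 libraries. All genes of 1 library share that library's depth and cell make-up, and the make-up differed between libraries. They also share its sex, which was not removed. Atf6-/- replicates 1, 2 and 3 lacked Y-linked expression, and replicates 4, 5 and 6 had it. Hspa5, Hsp90b1, Manf and Hyou1 were higher in each of the former than in any of the latter, while Calr and Sdf2l1 overlapped. The part of sex in the correlations was not tested. Among 13610 other genes whose mean reached 1 FPKM, Calr ranked first (r = 0.954, Spearman rho = 0.900) and Hsp90b1 second (r = 0.951, rho = 0.873), and Sdf2l1 was ninth (r = 0.918, rho = 0.818).

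The remaining members of the list tracked Hspa5 less closely. Manf had r = 0.905 (rank 21) and Hyou1 r = 0.833 (rank 89), followed by Dnajb11 (0.692), Canx (0.650) and Hspa13 (0.378). Dnajc3 had the lowest value (r = -0.159, rank 9625). Without the 2 libraries farthest from the Hspa5 median, Atf6+/+ replicate 3 and Atf6-/- replicate 5, r was 0.914 for Calr, 0.945 for Hsp90b1, 0.837 for Sdf2l1 and 0.699 for Hyou1, while that of Dnajc3 changed sign to 0.199. The other genes among the 10 most like Hspa5 were Zfp101, Eif2s1, Dnajc28, Tbca, Dnajc15, Chordc1 and Ahsa2, with r from 0.917 to 0.942. Eif2s1 encodes the translation initiation factor that PERK phosphorylates, and Chordc1 and Ahsa2 encode co-chaperones of HSP90 or a relative of one. Xbp1, the transcription factor of the parallel branch, had r = 0.906 (rank 20), and Atf6 itself r = -0.011, which pooled 0.517 within the 5 Atf6+/+ and -0.981 within the 6 Atf6-/- libraries, where Atf6 spans less than 1 FPKM.

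**Figure D4:**
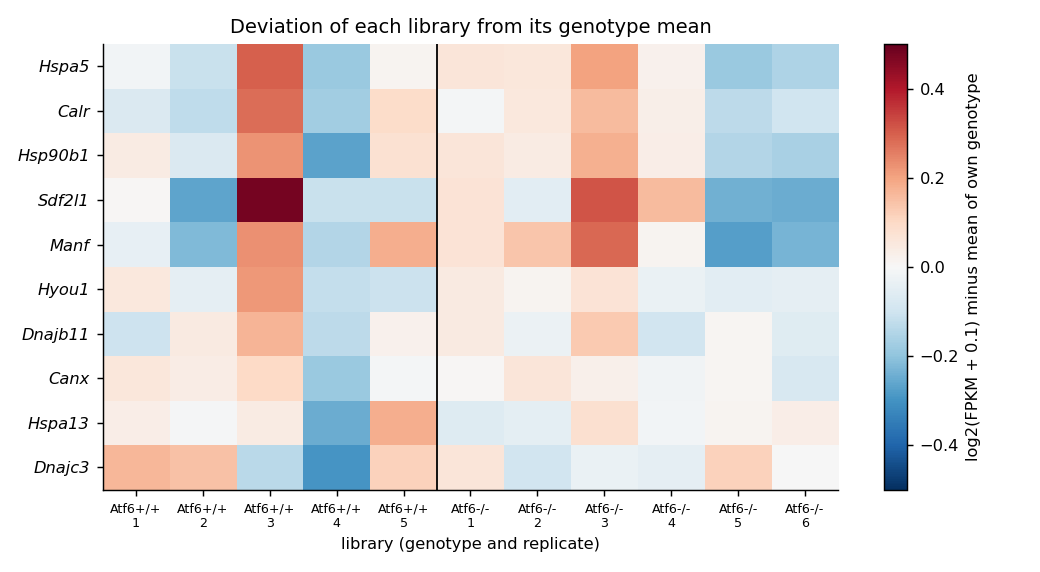
Deviation of each library from the mean of its own genotype, in log2(FPKM + 0.1), for the 10 chaperone genes (rows, from the gene most like Hspa5 to the least) and 11 libraries (columns). Replicate 3 of each genotype is high for 8 genes, and Dnajc3 is high in other libraries.

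Because Hspa5, Hsp90b1 and Calr moved together between libraries, their proportions were compared as well. This comparison was chosen after the values had been seen. Hsp90b1 per unit of Hspa5 was 1.37, 1.35, 1.25, 1.24 and 1.37 in the Atf6+/+ libraries and 1.16 to 1.21 in the Atf6-/- libraries. Every Atf6-/- value lay below every Atf6+/+ value, which held for 0.186% of 16168 genes set against Hspa5. The difference was -10.1%, with a limma interval from -19.7% to 0.680%, an unadjusted p of 0.0635 and an adjusted p of 0.998. The Hsp90b1 ratio passed the unadjusted threshold in 2 of 11 fits that left out 1 library (without Atf6+/+ replicate 3 or 4). It passed in 0 of 9 other settings.

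Calr per unit of Hspa5 was 2.19, 2.26, 2.25, 2.30 and 2.41 in Atf6+/+ and 2.47 to 2.69 in Atf6-/- libraries, and Hyou1 per unit of Hspa5 was 0.201 to 0.229 and 0.240 to 0.289. Both were higher in Atf6-/- cochleae without overlap, which held for 0.179% of genes. The differences were 13.6% (95% interval 1.05% to 27.6%, adjusted p = 0.998) for Calr and 20.5% (6.04% to 36.9%, adjusted p = 0.802) for Hyou1. Both passed the unadjusted threshold, as did 714 of all 16168 ratios in either direction. At the unadjusted threshold the Calr ratio passed in 5 of 11 fits that left out 1 library and in 6 of 9 other settings (log2 differences 0.17 to 0.21; not with a replicate block, a pseudocount of 1 FPKM or the bone marrow score, nor without Atf6+/+ replicate 1 or 2 or Atf6-/- replicate 2, 4, 5 or 6). The Hyou1 ratio passed in 11 of 11 and in 8 of 9 (0.24 to 0.31; not with the bone marrow score). Of all 16168 ratios 9 (0.0557%) had an adjusted p under 0.05, none of them a chaperone of the list, and the ratios of the other 6 genes overlapped between genotypes. Of these, the Hspa13 ratio was 21.4% higher (95% interval 2.52% to 43.8%, adjusted p = 0.998) and passed the unadjusted threshold in 8 of 11 fits without 1 library (not without Atf6+/+ replicate 3 or Atf6-/- replicate 5 or 6) and in 7 of 9 other settings (not with the replicate block or the bone marrow score). The intervals of Canx, Dnajb11, Dnajc3, Sdf2l1 and Manf crossed 0. In this fit every gene carries the spread of Hspa5, and ratios do not change with the scaling of a library.

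The ratio of Calr to Hsp90b1, the 2 most abundant of the 10 genes, was 1.60, 1.67, 1.80, 1.85 and 1.76 in Atf6+/+ cochleae and ran from 2.09 to 2.29 in Atf6-/- cochleae. Of 45 pairs among the 10 genes, 10 (22.2%) had ratios that did not overlap between genotypes, against 1.25% of all pairs of genes tested. The pairs share genes, and 8 of the 10 included Hsp90b1 or Hyou1. The other 2 were Hspa5 with Calr and Hspa13 with Dnajb11. The 22.2% and the 1.25% are not like for like. All pairs include genes down to a mean of 0.1 FPKM, and several of the 10 genes varied together, which narrows their ratios. Hsp90b1, Hyou1 and Hspa13 were already called in the same data, so the pairs add no separate support. On the log2 scale Hsp90b1 to Hspa13 (-0.44) and Hsp90b1 to Hyou1 (-0.42) shifted further than Hsp90b1 to Calr (-0.34).

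**Figure D5:**
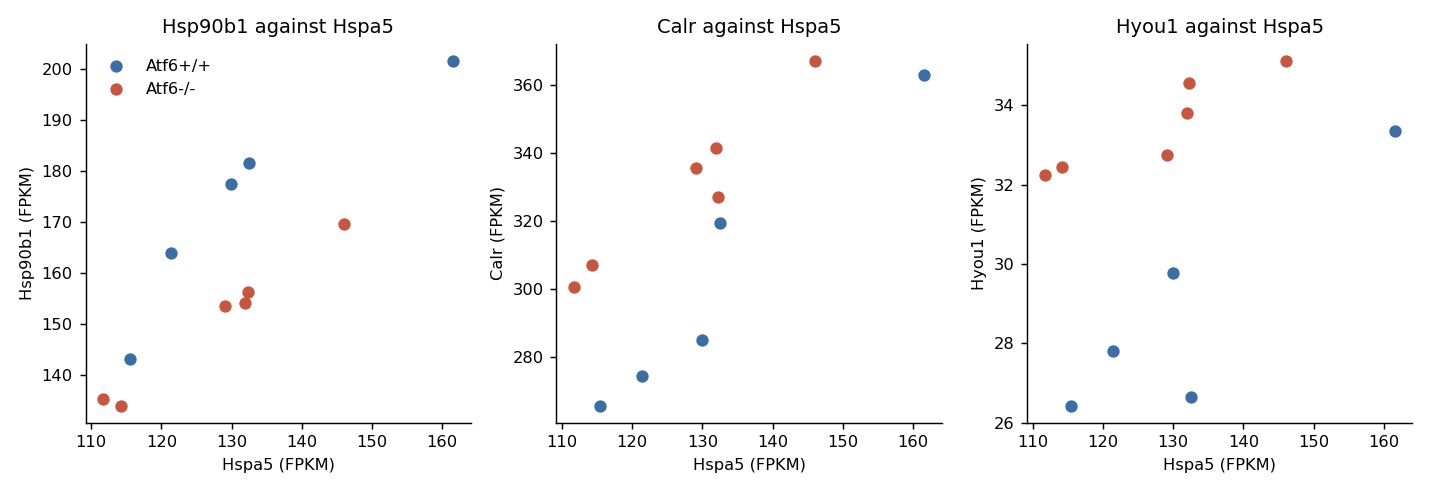
FPKM of Hsp90b1, Calr and Hyou1 (vertical axes) against Hspa5 (horizontal axes) in 5 Atf6+/+ (blue) and 6 Atf6-/- (red) cochleae, each point a library; the axes do not start at 0. At a given Hspa5 level the Atf6-/- points lie lower for Hsp90b1 and higher for Calr and Hyou1.

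Other parts of the ER folding machinery were described by 6 lists. Their counts stand beside the 4.48% of all genes called higher and the 5.37% called lower. Among 10 further HSP70 partners, 2 were higher at the unadjusted threshold, the J protein Dnajb9 (26.1 to 30.7 FPKM, log2 0.24) and Ficd, which AMPylates BiP (8.31 to 9.16 FPKM, log2 0.14). Ficd was non-overlapping between genotypes, as were 0.643% of genes in the higher and 0.606% in the lower direction, and none of the 10 chaperone genes was. None of the 10 partners was lower, and Creld2 had a log2 difference of 0.15 at an unadjusted p of 0.107.

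In the lectin cycle 1 of 10 genes was higher, the cargo receptor Lman1 (19.1 to 21.8 FPKM, log2 0.20), and none was lower. Uggt1, the folding sensor of the cycle, had a log2 difference of 0.12 and the disulfide isomerase Pdia3 one of -0.13, both short of the threshold. Among 9 KDEL receptors and lumenal calcium binders, Nucb2 was higher (9.71 to 10.7 FPKM, log2 0.14). Of 8 prolyl isomerases Fkbp11 was lower (7.34 to 5.31 FPKM, log2 -0.49), and of 8 GRP94 cofactors and client-specific chaperones none passed.

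Of 8 other ATF6 targets Herpud1, a component of ER-associated degradation, was higher (79.2 to 90.3 FPKM, log2 0.19) and Derl3, a Derlin of the same pathway, was lower (3.33 to 2.42 FPKM, log2 -0.47). Pdia4 had a log2 difference of 0.12 at an unadjusted p of 0.0756. The median log2 differences of the 6 lists lay between -0.058 (prolyl isomerases) and 0.083 (HSP70 partners), and none of their genes passed an adjusted p of 0.05. Over the 52 different genes of the 6 lists, 5 (9.62%) were higher and 2 (3.85%) lower at the unadjusted threshold.

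Markers of other cell types were read in the same libraries. Cochlear markers were present, with Coch at 2024 to 2870 FPKM in Atf6+/+ and 2428 to 3731 FPKM in Atf6-/- libraries. Of 10 erythroid markers 7 were lower in Atf6-/- cochleae at the unadjusted threshold, against 5.37% of all genes, with a median log2 difference of -1.46, and their summed level ran from 4840 to 46411 FPKM in Atf6+/+ and from 2875 to 9392 FPKM in Atf6-/- libraries. Of 10 neutrophil markers 4 were lower (sums 279 to 3448 and 112 to 1336 FPKM), of 10 B cell markers 4 (32.2 to 57.7 and 30.7 to 40.6 FPKM) and of 5 plasma cell markers tested 2 (3.18 to 6.89 and 2.71 to 3.47 FPKM). No marker of 10 for osteoblasts and of 8 for macrophages passed. All 10 osteoblast markers had lower means (sums 361 to 2105 and 284 to 922 FPKM), as did 7 of 8 macrophage markers (180 to 267 and 126 to 234 FPKM).

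Markers of cochlear cells had positive medians, 0.24 for hair cells, 0.22 for supporting cells, 0.28 for the stria vascularis and 0.32 for the spiral ligament. Higher at the unadjusted threshold, against 4.48% of all genes, were 2 of 10 hair cell markers (Ocm and Slc26a5), 1 of 9 for supporting cells (Fgfr3), 1 of 8 for the stria vascularis (Kcnj10) and 1 of 6 for the spiral ligament (Coch). No cochlear marker was lower at that threshold, and 2 hair cell markers (Gfi1 and Cib2) and 1 of supporting cells (Tecta) had negative differences. The bone marrow score is the mean log2 level of neutrophil, B cell and erythroid markers. Atf6+/+ replicate 3, the highest Atf6+/+ library for 8 chaperone genes, had the highest score (5.23, against 1.76 to 4.29 in the other 10 libraries). The 4.29 belonged to Atf6+/+ replicate 4, the lowest Atf6+/+ library for 8 of the 10 genes. Atf6-/- replicate 3, the highest Atf6-/- library for 8, scored 2.55. With this score as a covariate Hyou1 and Hspa13 passed the unadjusted threshold and Hsp90b1 did not. Beyond this covariate and the osteoblast score, the part of these cells in the chaperone values was not tested. FPKM summed to 474616 to 537926 in Atf6+/+ and 462005 to 502419 in Atf6-/- libraries, and Y-linked genes were expressed in 4 of 5 and 3 of 6 libraries.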

How the data were processed

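The authors sequenced stranded mRNA libraries (BGI DNBSEQ, paired-end 100 bp reads, 30 M reads per sample), aligned them to GRCm39 with HISAT2 2.0.4 and deposited FPKM values from RSEM, with 2 decimals. They tested with DESeq2 1.4.5, whose fold changes and p-values were not used. Without counts, the depth behind each value beyond that stated number of reads is unknown.

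A pseudocount of 0.1 FPKM was added before the log2 transformation, and genes whose mean reached 0.1 FPKM were tested in 1 model with genotype as its only term (limma 3.58.1 with a mean-variance trend, R 4.3.3), two-sided, with Benjamini-Hochberg adjustment over all genes tested. Exact two-sided permutation tests ran over all 462 splits of 11 libraries (smallest p 0.00216). Percent differences are geometric, from the fitted log2 values. The model was tested on simulated data. Alternatives were other pseudocounts, filters and scalings, a replicate block, robust variance, marker-score and sex covariates, and leaving out each library. The osteoblast covariate and the ratios to Hspa5 were added after the values were seen.

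The 10 genes and all lists were chosen with earlier results of these data known. Named genes are the 10, Atf6, Atf6b, of each list the up to 3 genes with the smallest p and any called, and the 10 genes most like Hspa5; called genes with an ERSE, Xbp1 and the cell markers with values were named after their values were seen. Promoters are RefSeq GRCm38.p6, not the authors' build. Python 3.11.15 with pandas 2.3.3 was used for the other steps. C-terminal retention signals were not analysed here.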

Additional observations from a re-analysis of the deposited data

How the results depend on the processing

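Hyou1 and Hspa13 were higher at the unadjusted threshold under each of 22 alternatives (log2 0.19 to 0.28 and 0.17 to 0.29), and no member had an adjusted p under 0.05 under any; the smallest was 0.0998, for Hyou1. The number of chaperone genes lower at the unadjusted threshold was 0 instead of 1 after rescaling to TPM, with the replicate block, with the bone marrow or osteoblast score as covariate, and between 0 and 1 when 1 library was left out. The causes were not tested. TPM called 1389 genes higher and 439 lower, against 724 and 868, and moved the median of all genes to 0.043. The block, which leaves out Atf6-/- replicate 6, gave 1078 calls and the bone marrow score 897, against 1592. Replicate numbers were not found to pair the libraries (same-number correlations of deviations -0.21 to 0.12), so the block is no paired test.

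Small differences changed sign. The median of the 10 genes was -0.025 with the sex term, -0.0065 with the bone marrow score, 0.056 with the block and 0.081 under TPM. Without 1 library that median ran from -0.017 (Atf6+/+ replicate 4) to 0.056 (Atf6-/- replicate 6). Hspa5 was 0.0091 under TPM and 0.00084 with the bone marrow score, and -0.094 to 0.027 when 1 library was left out. Canx was 0.056 under TPM, 0.0053 under median-of-ratios scaling and 0.015 with the block, and -0.047 to 0.024 without 1 library. Dnajb11 was 0.0029 under TPM, Dnajc3 -0.035 with the bone marrow score, and Manf -0.038 with the sex term and -0.0074 to 0.11 without 1 library. For log2 ratios to Hspa5, Canx was -0.015 and Dnajc3 -0.035 with the bone marrow score, Dnajb11 was 0.015 with the sex term, and without 1 library Canx ran from -0.0030 to 0.084 and Dnajb11 from -0.045 to 0.034. Without read counts, the counting error of the low genes, such as Hspa13, is unknown.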
